A study of Mus musculus with 11 samples.

Results

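The platelet-derived growth factor (PDGF) genes are the 4 ligand genes Pdgfa, Pdgfb, Pdgfc and Pdgfd and the 2 receptor genes Pdgfra and Pdgfrb. They were taken by symbol from a table of 24320 mouse genes measured by RNA sequencing in 11 brain libraries. All 6 were among the 14491 genes with at least 1 FPKM (fragment counts divided by transcript length and by library size, so a level per length) in at least 3 libraries, so all 6 were tested. Both tumor groups came from newborn mice given plasmids into the right lateral ventricle. These carried Sleeping Beauty (SB) transposase, which inserts DNA into the genome, firefly luciferase, the SV40LgT oncogene and 1 more oncogene. That oncogene was PDGFB in the 4 PDGFB tumors and constitutively active nRas-G12V in the 4 NRAS tumors. The 3 normal brains are labelled WT control, and the dissection separated fluorescent tumor from tissue without fluorescence. Tumors were taken at mid-stage, with no age in the labels, and what promoters drove the plasmids was not given in the sources used here. In the design text the mice are FVB, while the strain label reads B6 for 10 libraries and FVB for 1 normal brain. The study set the models against each other and against normal brain to relate them to subtypes of human glioblastoma.

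PDGF ligands are dimers that pull together pairs of receptor tyrosine kinases on the cell surface, which then recruit kinases, adaptors and phosphatases. The A and C chains act mainly through the alpha receptor, the B chain through both receptors and the D chain mainly through the beta receptor. In the brain, neurons and astrocytes supply the A chain to oligodendrocyte progenitors, which carry the alpha receptor, while endothelium supplies the B chain to pericytes, which carry the beta receptor. Amplification of the alpha receptor gene is a known feature of the proneural subtype of human glioblastoma.

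Pdgfra and Pdgfa are the members called in all 3 comparisons of the main fit, so their promoters are shown. For Pdgfa the call in NRAS tumors against normal brain was lost in 16 of 21 alternative settings. Its call in PDGFB tumors against normal brain was lost in 1 of 20. Each is a window of 300 bases around a transcript start in RefSeq annotation of GRCm38.p6, read 5′ to 3′ on the gene's own strand. That source gave windows for 4 of the 6 genes, and for Pdgfa it gave 2, of which the upstream one is shown. The Pdgfra window lies at chr5:75152001-75152300 on the plus strand, and the Pdgfa window at chr5:138994895-138995194 on the minus strand. Capitals in the first mark the motif TTGCNNAA, bound by C/EBP factors, in the second match on the other strand, and capitals in the second mark the GC box GGGCGG.
Pdgfra: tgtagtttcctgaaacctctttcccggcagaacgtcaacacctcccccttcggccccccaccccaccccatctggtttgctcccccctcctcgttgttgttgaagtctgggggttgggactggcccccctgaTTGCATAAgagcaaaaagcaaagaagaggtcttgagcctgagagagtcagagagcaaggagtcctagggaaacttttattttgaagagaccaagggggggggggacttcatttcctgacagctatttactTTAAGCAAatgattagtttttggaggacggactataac
Pdgfa: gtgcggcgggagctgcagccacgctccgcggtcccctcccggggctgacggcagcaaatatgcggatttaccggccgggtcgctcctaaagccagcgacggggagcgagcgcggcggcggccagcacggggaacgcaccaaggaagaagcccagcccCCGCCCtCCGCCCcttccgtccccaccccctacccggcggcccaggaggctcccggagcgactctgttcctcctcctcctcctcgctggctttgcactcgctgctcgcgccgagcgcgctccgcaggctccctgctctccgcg
Pdgfra held TTGCNNAA at 2 places, 1 on each strand, a motif chosen with this sequence in view, and 10.8% of 32851 mouse promoters of the same length hold it. The Pdgfa window held the GC box at 2 places, both on the opposite strand, its other window held it at 1 place, and 35.7% of promoters hold it. Pdgfra had no match on either strand to the GC box GGGCGG, the E-box CAGCTG, the SOX motif ACAAAG, the EGR motif GCGGGGGCG or the TATA box TATAAA, and Pdgfa had none to the last 4 of these. Among all promoters 16.3%, 18.7%, 2.91% and 13.6% hold those 4 in the order given. Motif matches describe these windows only.

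Pdgfb lies on chromosome 15 (GRCm38 chr15:79995874-80014977, minus strand), Pdgfa on chromosome 5 (chr5:138976014-138997370, minus strand) and Pdgfc on chromosome 3 (chr3:81036416-81214040, plus strand). Pdgfd lies on chromosome 9 (chr9:6168584-6378850, plus strand), Pdgfra on chromosome 5 (chr5:75152292-75198215, plus strand) and Pdgfrb on chromosome 18. All 6 are protein-coding. Antisense genes overlap Pdgfa (6330403L08Rik), Pdgfb (Gm41361), Pdgfc (Gm16000) and Pdgfra (Gm42802), and strand use in the counting was not given in the sources used here, so the reads of such partners cannot be told apart from theirs.

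The libraries had upper quartiles between 13.9 and 14.9 FPKM and between 12705 and 13923 genes at 1 FPKM or more. Low values gave relative depths between 0.776 and 1. The tissue labels were checked against marker lists. All 12 cell cycle genes were higher in both tumor groups than in normal brain, where 29.3% (PDGFB) and 32.0% (NRAS) of all genes were. Neuron genes were lower for 10 of 10 in PDGFB tumors and 9 of 10 in NRAS tumors, against 29.2% and 30.3%. With the number series of the titles in the fit, 5 and 7 neuron genes were lower, where 2305 and 3458 of 14491 genes were. Of 10 myelinating oligodendrocyte genes, 9 were lower in PDGFB and 10 in NRAS tumors, or 0 and 1 with the number series. Titles carry numbers of 2 series: 1834 to 1838 holds the normal brains with NRAS tumors 1 and 2, and 2038 to 2046 holds NRAS tumors 3 and 4 with the PDGFB tumors. No series holds both PDGFB tumors and normal brain, so for that comparison the number series and the group cannot be told apart within either series.

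Pdgfb, the ligand on the plasmid, checked the labels. Its level was 1030.1, 1564, 904 and 745 FPKM in PDGFB tumors 1 to 4. NRAS tumors 1 to 4 had 5.15, 5.49, 6.46 and 7.80 FPKM, and normal brains 1 to 3 had 6.88, 6.12 and 7.19 FPKM. All 4 PDGFB tumors lay far above the other 7 libraries, among which NRAS tumors and normal brains overlapped. The mean was 1061 ± 355 FPKM in PDGFB tumors (SD, n = 4), 6.22 ± 1.19 in NRAS tumors (SD, n = 4) and 6.73 ± 0.547 in normal brain (SD, n = 3). On the log2(FPKM + 1) scale of all fold changes given here, PDGFB tumors were higher than normal brain by 7.05 ± 0.22 (SE, limma adjusted p = 2.36e-08), a ratio of mean FPKM of 158. They were higher than NRAS tumors by 7.16 ± 0.20 (adjusted p = 1.34e-08), a ratio of mean FPKM of 170. NRAS tumors differed from normal brain by -0.11 ± 0.22 (adjusted p = 0.684). The species of the plasmid's PDGFB was not given in the sources used here, and the table does not separate plasmid transcripts from those of the mouse gene.

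**Figure D1:**
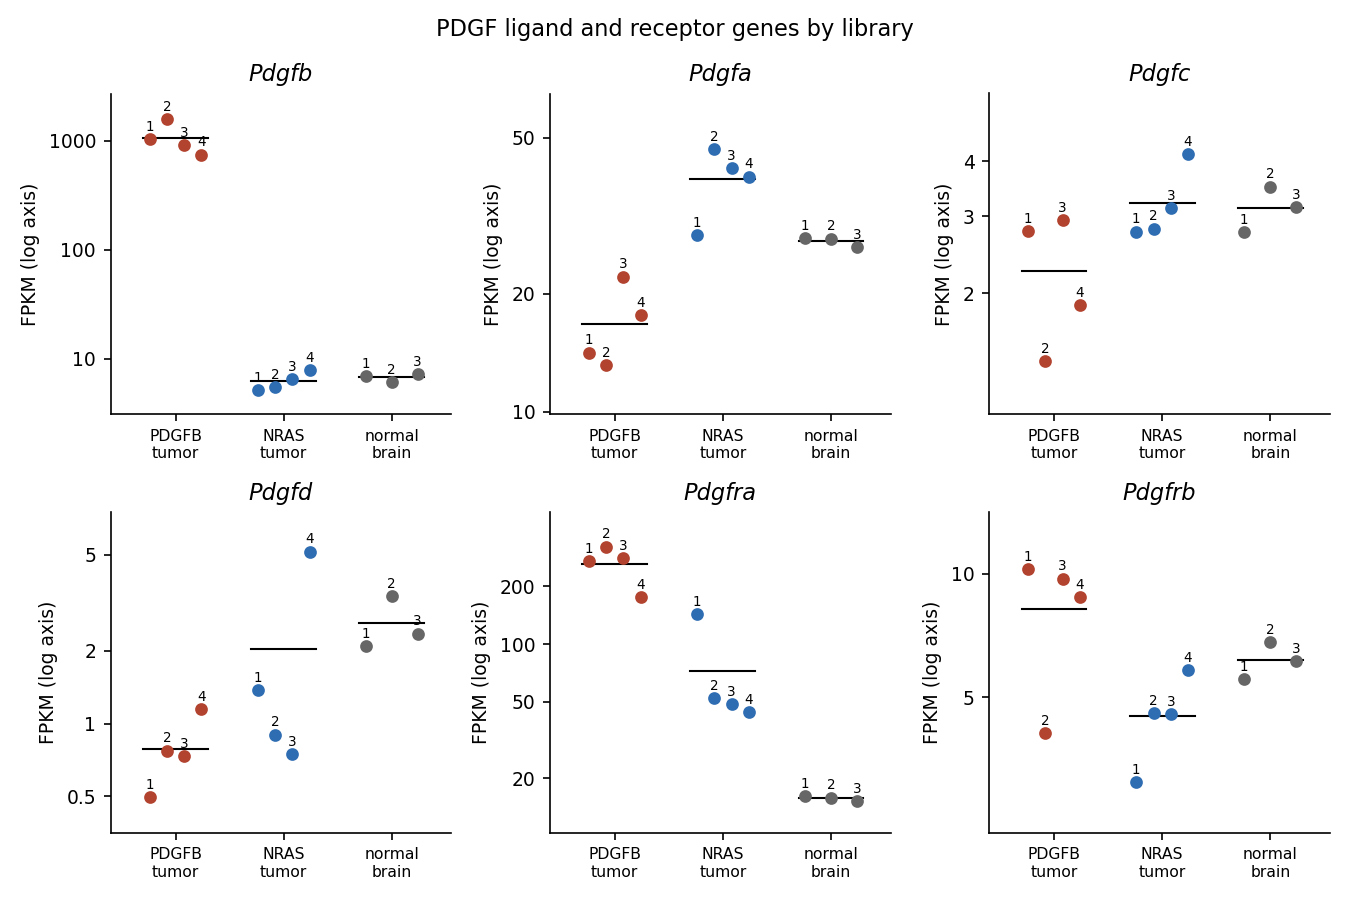
FPKM (log axes) of the 6 PDGF genes in each library, with points numbered by replicate and a line at the group mean. Pdgfb was at 745 FPKM or more in every PDGFB tumor, Pdgfra was ordered PDGFB tumor, NRAS tumor and normal brain without overlap, and Pdgfa was lowest in PDGFB tumors.

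Pdgfa encodes the ligand that is a mitogen of oligodendrocyte progenitors. It had 14.1, 13.1, 22.1 and 17.6 FPKM in PDGFB tumors 1 to 4. NRAS tumors 1 to 4 had 28.2, 46.8, 41.8 and 39.8 FPKM, and normal brains 1 to 3 had 27.8, 27.6 and 26.3 FPKM. Every PDGFB tumor was below every normal brain and every NRAS tumor was above, although NRAS tumor 1 exceeded the highest normal brain only narrowly. Pdgfa fell in PDGFB tumors against normal brain by 0.70 ± 0.20 on the log2 scale (adjusted p = 0.0103), with means of 16.7 ± 4.07 and 27.2 ± 0.819 FPKM. With the number series in the fit this difference did not pass (-0.86, adjusted p = 0.0699). PDGFB tumors differed from NRAS tumors, whose mean was 39.2 ± 7.87 FPKM, by -1.18 ± 0.18 (adjusted p = 0.00143), and by -1.26 within numbers 2038 to 2046 (adjusted p = 0.007). In NRAS tumors Pdgfa rose by 0.49 ± 0.20 against normal brain (adjusted p = 0.0492), just inside the threshold of 0.05. That rise did not pass without PDGFB tumor 1 or 4, NRAS tumor 2, 3 or 4, or normal brain 1, 2 or 3 (0.40 to 0.50, adjusted p = 0.0558 to 0.121), nor within numbers 1834 to 1838 (0.41, adjusted p = 0.189).

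The C and D ligands are secreted in a latent form and need a protease to free their growth factor domain. Pdgfc had 2.77, 1.40, 2.93 and 1.88 FPKM in PDGFB tumors 1 to 4. In NRAS tumors 1 to 4 it had 2.76, 2.81, 3.13 and 4.16 FPKM, and normal brains 1 to 3 held 2.75, 3.50 and 3.14 FPKM. The 3 groups overlapped, and no comparison passed. PDGFB tumors differed from normal brain by -0.37 ± 0.20 (adjusted p = 0.132) and from NRAS tumors by -0.39 ± 0.19 (adjusted p = 0.142), and NRAS tumors from normal brain by 0.02 ± 0.20 (adjusted p = 0.936). Pdgfd was the lowest member on average in each group. It had 0.496, 0.772, 0.735 and 1.15 FPKM in PDGFB tumors 1 to 4. NRAS tumors 1 to 4 had 1.37, 0.899, 0.745 and 5.13 FPKM, and normal brains 1 to 3 had 2.08, 3.37 and 2.36 FPKM. All PDGFB tumors were below all normal brains, whereas NRAS tumors 1 to 3 lay below and NRAS tumor 4 above them.

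In PDGFB tumors Pdgfd fell by 1.01 ± 0.37 on the log2 scale against normal brain (adjusted p = 0.0367), with means of 0.787 ± 0.268 and 2.6 ± 0.678 FPKM. That call was lost without PDGFB tumor 1, 2 or 3 or any 1 of the normal brains (-1.11 to -0.86, adjusted p = 0.0564 to 0.123), and also with the number series in the fit (-1.63, adjusted p = 0.0556). NRAS tumors, with a mean of 2.04 ± 2.08 FPKM, differed from normal brain by -0.44 ± 0.37 (adjusted p = 0.328). Without NRAS tumor 4 this was -0.84 (adjusted p = 0.00593), and within numbers 1834 to 1838 it was -0.75 (adjusted p = 0.0447). PDGFB tumors differed from NRAS tumors in Pdgfd by -0.57 ± 0.34 (adjusted p = 0.249). NRAS tumor 4 was also the NRAS tumor with the highest summed FPKM of 10 fibroblast markers, 134.5 against 47.4 to 54.2 in NRAS tumors 1 to 3, and it had the highest Pdgfc and Pdgfrb of its group. The part of these markers in the Pdgfd value was not tested.

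The 3 ligands that are on no plasmid were summed in each library. PDGFB tumors 1 to 4 had sums of 17.4, 15.3, 25.8 and 20.6 FPKM, NRAS tumors 1 to 4 had 32.4, 50.6, 45.7 and 49.1 FPKM, and normal brains 1 to 3 had 32.6, 34.5 and 31.8 FPKM. Each PDGFB tumor was below every library of the other groups, while NRAS tumor 1 lay among the normal brains. The mean was 19.8 ± 4.57 FPKM in PDGFB tumors, 44.4 ± 8.29 in NRAS tumors and 33.0 ± 1.40 in normal brain. A two-sided exact permutation test gave p = 0.0286 for PDGFB against NRAS tumors (0.0857 adjusted over the 3 comparisons) and p = 0.0571 for PDGFB tumors against normal brain (adjusted 0.0857). NRAS tumors against normal brain gave an exact p = 0.171. With p taken as double the smaller tail, the smallest p these group sizes allow is 0.0286 for 4 against 4 and 0.0571 for 4 against 3 libraries. No p adjusted over the 3 comparisons could therefore fall under 0.05, so this test could not call a difference. Pdgfa made up 84.5% of this sum in PDGFB tumors, 88.1% in NRAS tumors and 82.6% in normal brain. With Pdgfb included, Pdgfb made up 98.0% ± 0.867 of the ligand FPKM in PDGFB tumors, 12.4% ± 1.84 in NRAS tumors and 17.0% ± 1.73 in normal brain.

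Pdgfra, the alpha receptor gene and a defining gene of oligodendrocyte progenitors, differed between all 3 groups. PDGFB tumors 1 to 4 had 270.9, 322, 280.1 and 176 FPKM. NRAS tumors 1 to 4 had 143.5, 52.3, 48.8 and 44.1 FPKM, and normal brains 1 to 3 had 16.2, 15.9 and 15.2 FPKM. The groups did not overlap, and NRAS tumor 1 lay nearer to the lowest PDGFB tumor than to the other NRAS tumors. The mean was 262 ± 61.7 FPKM in PDGFB tumors (SD, n = 4), 72.2 ± 47.7 in NRAS tumors (SD, n = 4) and 15.7 ± 0.508 in normal brain (SD, n = 3). Pdgfra rose by 3.94 ± 0.36 in PDGFB tumors against normal brain (adjusted p = 1.49e-05), a ratio of means of 16.7. It rose by 1.95 ± 0.36 in NRAS tumors against normal brain (adjusted p = 0.000946), a ratio of 4.59, and by 2.39 within numbers 1834 to 1838 (adjusted p = 0.0122). PDGFB tumors were higher than NRAS tumors by 1.99 ± 0.33 (adjusted p = 0.00203), a ratio of 3.63, and by 2.44 within numbers 2038 to 2046 (adjusted p = 0.000745). All these calls held when any 1 library was left out, with the difference between the tumor groups between 1.82 and 2.38. In such bulk tissue, more cells of a type cannot be told apart from more RNA per cell.

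Other markers of oligodendrocyte progenitors stood beside Pdgfra. The summed level of 16 of them, Pdgfra not included, was 1777 to 2054 FPKM in PDGFB tumors, 235 to 1023 in NRAS tumors and 299.6 to 382 in normal brain, and none was listed at 0 in all libraries of a group. Among them 11 were higher and 1 lower in PDGFB tumors than in normal brain, and 5 were higher and none lower in NRAS tumors (none lower at an unadjusted p under 0.05 either, by limma). The last count was 11 higher without NRAS tumor 4, 4 higher and 2 lower without NRAS tumor 1, 10 higher with the number series in the fit and 8 higher within numbers 1834 to 1838. Among all genes, 29.3% were called higher in PDGFB tumors and 32.0% in NRAS tumors, so the 5 higher in NRAS tumors in the main fit stand near that share. Genes called higher in NRAS tumors numbered 4454 of 14491 without NRAS tumor 4 and 4248 without NRAS tumor 1. They numbered 3761 with the number series in the fit and 3427 within numbers 1834 to 1838. The counts of 11, 10 and 8 of 16 stood above these shares, and the 4 without NRAS tumor 1 did not. PDGFB tumors had 11 of the 16 above NRAS tumors and none below, where 12.2% and 14.3% of all genes were. By limma, 1 marker (Neu4) was lower there at an unadjusted p under 0.05. Cspg4, the NG2 proteoglycan gene, had 60.0 FPKM in PDGFB tumors, 9.65 in NRAS tumors and 3.02 in normal brain. Olig2, a transcription factor gene of this lineage, had 243, 70.1 and 16.4 FPKM in PDGFB tumors, NRAS tumors and normal brain. NRAS tumor 1, highest in Pdgfra among the NRAS tumors, was also highest in these markers at 1023 FPKM. NRAS tumor 4 had less of these markers than any normal brain (235 FPKM against 299.6 to 382) but more Pdgfra than any (44.1 FPKM against 15.2 to 16.2). The part of the progenitor markers in the Pdgfra differences was not tested.

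**Figure D2:**
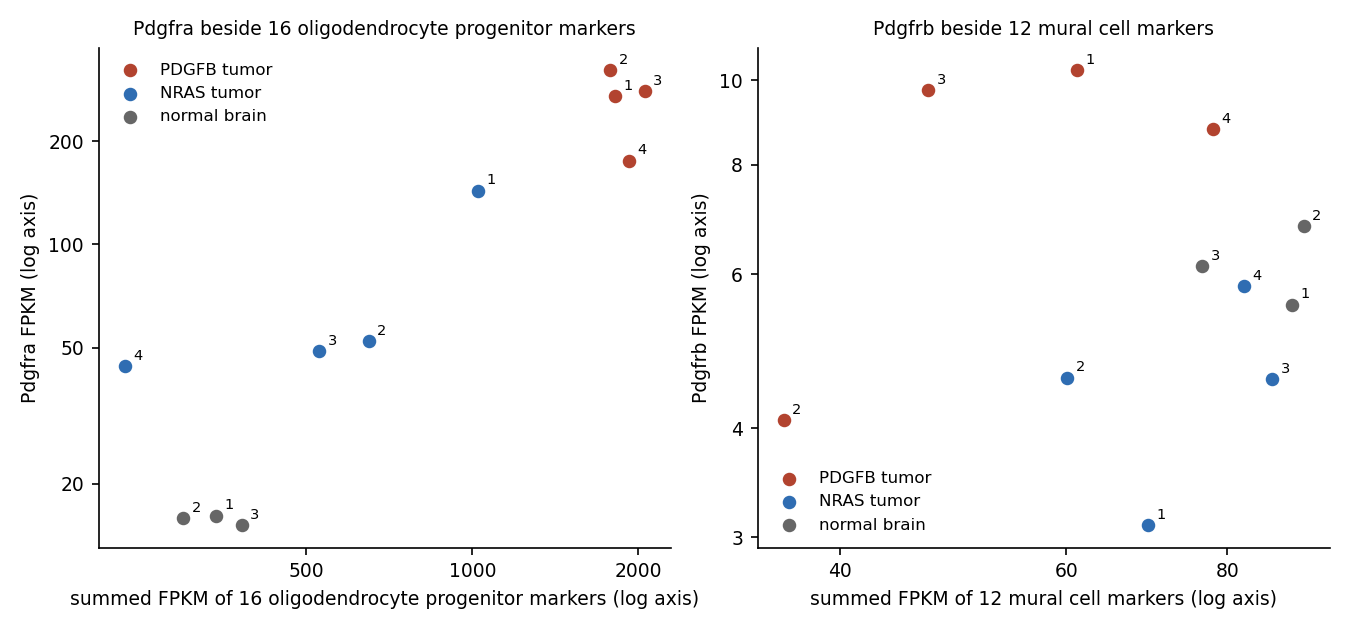
Left, Pdgfra FPKM against the summed FPKM of 16 oligodendrocyte progenitor markers, and right, Pdgfrb FPKM against the summed FPKM of 12 mural cell markers, with log axes and 1 numbered point for each library. PDGFB tumors sat at the top right for Pdgfra, and NRAS tumor 4 had more Pdgfra than normal brains at a lower marker sum; for Pdgfrb, PDGFB tumors 1, 3 and 4 were highest without the highest mural sums.

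Pdgfrb, the beta receptor gene of pericytes, smooth muscle and fibroblasts, had 10.3, 4.08, 9.73 and 8.78 FPKM in PDGFB tumors 1 to 4. NRAS tumors 1 to 4 had 3.10, 4.57, 4.55 and 5.81 FPKM, and normal brains 1 to 3 had 5.54, 6.81 and 6.13 FPKM. PDGFB tumors 1, 3 and 4 exceeded all other libraries, while PDGFB tumor 2 was below every normal brain. The means were 8.22 ± 2.82 FPKM in PDGFB tumors, 4.51 ± 1.11 in NRAS tumors and 6.16 ± 0.634 in normal brain. No comparison passed: the difference was 0.30 ± 0.27 for PDGFB tumors against normal brain (adjusted p = 0.361), -0.40 ± 0.27 for NRAS tumors against normal brain (adjusted p = 0.222) and 0.70 ± 0.25 for PDGFB against NRAS tumors (adjusted p = 0.0609). Without PDGFB tumor 2 both comparisons of PDGFB tumors passed by limma, at 0.57 against normal brain (adjusted p = 0.0277) and 0.96 against NRAS tumors (adjusted p = 0.00551). PDGFB tumor 2 also differed from its group in other cell types. Its neuron genes summed to 243 FPKM against 654 to 824, and its cell cycle genes to 1291 against 825 to 864. Its endothelial markers (80.6 FPKM) were not the lowest, as PDGFB tumor 1 had 78.4. The part of these in its Pdgfrb level was not tested.

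Markers of the cells that carry the beta receptor did not all run with it. The summed FPKM of 12 mural cell markers was 36.1 to 78.1 in PDGFB tumors, 60.1 to 86.7 in NRAS tumors and 76.5 to 91.8 in normal brain, and PDGFB tumor 2 had the lowest. In PDGFB tumors against normal brain, 3 of the 12 were higher (Des, Kcnj8 and Abcc9) and 3 lower (Vtn, Rgs5 and Myh11). These counts stand near the background, as 29.3% of all genes were called higher and 29.2% lower. With the number series in the fit none was higher and 4 were lower, where 2463 and 2305 of all 14491 genes were. The 10 fibroblast markers summed to 125.4, 53.7, 147.7 and 148.3 FPKM in PDGFB tumors 1 to 4, to 47.4 to 134.5 in NRAS tumors and to 41.4 to 88.5 in normal brain, with PDGFB tumor 2 again the lowest of its group. Of these 9 could be tested, and 3 were higher in PDGFB tumors than in normal brain (Postn, Col3a1 and Lum). This is also near the 29.3% of all genes called higher. The count was 5 without PDGFB tumor 2 or without NRAS tumor 4, and 1 with the number series in the fit. In these 3 settings 3872, 4332 and 2463 of all 14491 genes were called higher. The summed FPKM of 11 endothelial markers, the cells that supply the B chain, was 78.4 to 113.8 in PDGFB tumors, 87.9 to 125.8 in NRAS tumors and 79.1 to 89.9 in normal brain. None of the mural, fibroblast or endothelial markers was listed at 0 in all libraries of a group, and their part in the Pdgfrb values was not tested.

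Pdgfra held a larger share of receptor FPKM in every tumor than in any normal brain. PDGFB tumors 1 to 4 had shares of 96.4%, 98.7%, 96.6% and 95.2%, NRAS tumors 1 to 4 had 97.9%, 92.0%, 91.5% and 88.4%, and normal brains 1 to 3 had 74.5%, 70.0% and 71.2%. The tumor groups overlapped through NRAS tumor 1. The mean was 96.7% ± 1.47 in PDGFB tumors, 92.4% ± 3.98 in NRAS tumors and 71.9% ± 2.31 in normal brain. Each tumor group against normal brain gave an exact p = 0.0571, the smallest possible for 4 against 3 libraries (adjusted 0.0857), and PDGFB against NRAS tumors an exact p = 0.114. As with the ligand sums, no adjusted p could fall under the threshold with these group sizes. Pdgfb exceeded the summed receptors in PDGFB tumors, at 3.91 ± 0.705 times the receptor FPKM, and was below them in NRAS tumors (0.102 ± 0.0510 times) and normal brain (0.308 ± 0.0347 times).

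**Figure D3:**
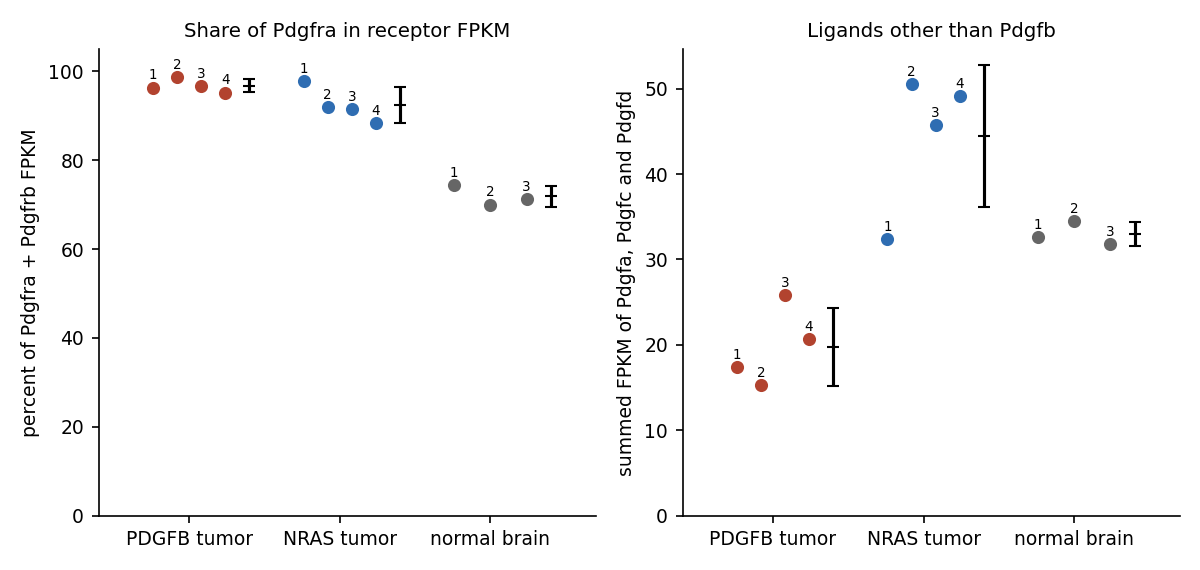
Left, Pdgfra as a percent of the FPKM of both receptors, and right, the summed FPKM of Pdgfa, Pdgfc and Pdgfd, with 1 numbered point for each library and bars for mean and SD (n = 4, 4 and 3). All tumors were at 88.4% or more for Pdgfra against 70.0% to 74.5% in normal brain, and PDGFB tumors had the lowest sums of the other ligands (15.3 to 25.8 FPKM).

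Against normal brain, PDGFB tumors had 2 members higher (Pdgfb and Pdgfra) and 2 lower (Pdgfa and Pdgfd) at an adjusted p under 0.05. Pdgfb is on the plasmid of this model, so its place here and in the counts against NRAS tumors came with the design. Of all genes tested, 58.5% were called in that comparison, 29.3% higher and 29.2% lower, so these counts alone are close to the background. The groups did not overlap for 4 members, against 65.7% of all genes. NRAS tumors had 2 members higher (Pdgfra and Pdgfa) and none lower, where 62.3% of all genes were called, 32.0% higher and 30.3% lower. The groups did not overlap for the same 2 members, against 65.1% of all genes. At an unadjusted p under 0.05 no other member passed in NRAS tumors against normal brain, by limma. PDGFB tumors against NRAS tumors had 2 members higher (Pdgfb and Pdgfra) and 1 lower (Pdgfa), with a background of 26.6%, made up of 12.2% higher and 14.3% lower. The groups did not overlap for those 3 members, against 24.5% of all genes. Both comparisons with normal brain share the same 3 normal libraries.

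**Figure D4:**
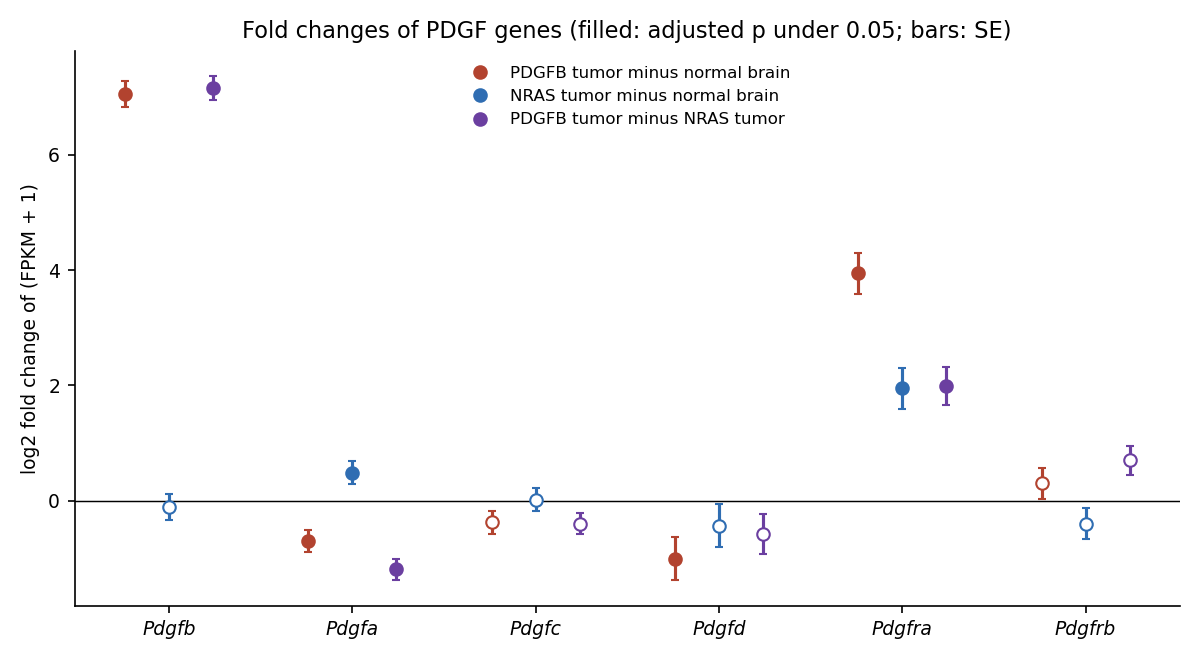
Log2 fold changes of (FPKM + 1) with SE for the 6 PDGF genes in the 3 comparisons, filled where the adjusted p was under 0.05. Pdgfra was higher in all 3 comparisons, Pdgfb only where PDGFB tumors were compared, and Pdgfa had opposite signs in the 2 tumor groups against normal brain.

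The order of the 6 levels differed between groups. In PDGFB tumors it was Pdgfb, Pdgfra, Pdgfa, Pdgfrb, Pdgfc and Pdgfd, and no 2 neighbours overlapped. In NRAS tumors Pdgfra came first with Pdgfa next, their ranges overlapping although Pdgfra was higher in all 4 libraries. Pdgfb, Pdgfrb, Pdgfc and Pdgfd followed, each overlapping the next. In normal brain Pdgfa came before Pdgfra without overlap, followed by Pdgfb and Pdgfrb, which overlapped, and by Pdgfc and Pdgfd, which overlapped too. Titles match PDGFB tumor 1 to normal brain 3 and NRAS tumor 2 to normal brain 1. In the first match the tumor's FPKM was 17.9 times that of its normal brain for Pdgfra, 0.538 times for Pdgfa, 0.211 times for Pdgfd and 1.67 times for Pdgfrb. The second match gave 3.24 times for Pdgfra, 1.69 times for Pdgfa, 0.432 times for Pdgfd and 0.825 times for Pdgfrb. Each of these ratios had the direction of its group means.

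Genes that process or bind PDGF ligands had more higher than lower calls in both models against normal brain. Of 14 such genes, 7 were higher and 1 lower in PDGFB tumors against normal brain (median log2 fold change 0.71, all genes 0.04), and likewise 7 and 1 in NRAS tumors (median 1.01, all genes 0.01). Among all genes, 29.3% were called higher and 29.2% lower in PDGFB tumors, and 32.0% and 30.3% in NRAS tumors. With the number series in the fit, 4 were higher and 1 lower in PDGFB tumors, where 2463 and 2305 of all 14491 genes were. Plat, the tissue plasminogen activator that frees PDGF-C, had 74.0 FPKM in PDGFB tumors, 179 in NRAS tumors and 21.9 in normal brain. It rose by 1.70 in PDGFB tumors (adjusted p = 0.00074) and 2.88 in NRAS tumors (adjusted p = 3.9e-05) against normal brain. Plau, the urokinase that frees PDGF-D, rose by 3.56 in NRAS tumors (adjusted p = 0.000473) to a mean of 33.3 FPKM, and had 4.83 FPKM in PDGFB tumors, against 1.14 in normal brain. A2m, a plasma protein that binds PDGF-BB, rose by 1.68 and 2.32 in PDGFB and NRAS tumors. Hspg2, the perlecan gene of basement membranes, rose by 1.75 and 1.82 in the same order. Pcsk5, a proprotein convertase gene, fell in both (log2 fold change -1.19 and -0.99). PDGFB tumors had none of the 14 above NRAS tumors and 4 below, namely Plau (-2.14), Furin (-1.33), Plat (-1.19) and the co-receptor gene Nrp1 (-0.70), or 2 below within numbers 2038 to 2046. No gene of the 14 was higher in that comparison at an adjusted p under 0.05 by limma, and 1 (Pcsk7) at an unadjusted p under 0.05. The shares of all genes called there were 12.2% higher and 14.3% lower.

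Among 32 adaptors and effectors that active PDGF receptors recruit, 12 were higher and 7 lower in PDGFB tumors against normal brain (median 0.35), and 14 higher and 6 lower in NRAS tumors (median 0.13). Set against the shares of all genes called, 29.3% higher and 29.2% lower in PDGFB tumors and 32.0% and 30.3% in NRAS tumors, the PDGFB counts stand near the background. With the number series in the fit, 7 were higher and 5 lower in PDGFB tumors, where 2463 and 2305 of all 14491 genes were. Stat3, a transcription factor gene downstream of receptors, rose by 1.93 in PDGFB and 1.94 in NRAS tumors. Map2k1, the MEK1 kinase gene, fell in PDGFB tumors (-1.47, adjusted p = 2.58e-05) and in NRAS tumors (-1.02, adjusted p = 0.000239). PDGFB tumors had 5 genes above NRAS tumors and 5 below, near the background of 12.2% of all genes higher and 14.3% lower. The 5 higher were Gab1, a docking protein gene (33.8 against 11.3 FPKM, 1.56, adjusted p = 0.00126), the PI3-kinase subunit genes Pik3r1 (1.21) and Pik3r2 (0.51), the Src family kinase gene Fyn (1.0) and the adaptor gene Crkl (0.46). Among the lower were Stat5a (-1.10), Shc1 (-0.87), Jak1 (-0.74) and Map2k1 (-0.45). Gab1 had 11.3 FPKM in normal brain as well, and NRAS tumors differed from normal brain in Gab1 by -0.06 (adjusted p = 0.846).

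Of 18 genes that shut down the receptors, 6 rose and 4 fell in PDGFB tumors against normal brain (median 0.16), and 10 rose and 3 fell in NRAS tumors (median 0.68). Among all genes, 29.3% were called higher and 29.2% lower in PDGFB tumors, near the PDGFB counts, and 32.0% and 30.3% in NRAS tumors. With the number series in the fit, 2 of the 18 were higher and 7 lower in PDGFB tumors. In that fit 2463 of all 14491 genes were higher and 2305 lower. Socs3, a suppressor of cytokine signaling, rose by 2.39 in PDGFB tumors and 4.25 in NRAS tumors. Grb10, an adaptor gene that dampens receptor kinases, fell in both (-2.30 and -1.42). PDGFB tumors had none of the 18 above NRAS tumors and 6 below, or 1 above and 8 below within numbers 2038 to 2046. With all libraries, 12.2% of all genes were called higher and 14.3% lower. The 6 were Socs1 (-3.09), Sla (-2.59), Ptpn6 (-2.51), Lrig1 (-2.13), Socs3 (-1.87) and Ptprj (-0.66). In the fit of all libraries none of the 18 was higher at an adjusted p under 0.05 by limma, and 1 (Ift20) at an unadjusted p under 0.05. Ptpn6 and Sla are mainly genes of blood cells, and the summed FPKM of 12 microglia and macrophage markers was 113.2 to 305 in PDGFB tumors, 504 to 1663 in NRAS tumors and 147 to 164 in normal brain. Their part in this difference was not tested. Lrig1, which promotes the turnover of growth factor receptors, had 11 FPKM in PDGFB tumors, 52.9 in NRAS tumors and 17.1 in normal brain. It fell in PDGFB tumors by 0.58 (adjusted p = 0.0354) and rose in NRAS tumors by 1.55 (adjusted p = 0.000209) against normal brain.

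Genes induced when PDGF acts on cultured cells, which other growth factors induce too, numbered 22. Of these 15 were higher and 7 did not pass in PDGFB tumors against normal brain (median 1.88), and 17 were higher and 5 did not pass in NRAS tumors (median 1.75), where 29.3% and 32.0% of all genes were called higher. None was lower in either at an adjusted p under 0.05 by limma or at an unadjusted p under 0.05. Ccnd1, the cyclin D1 gene, had 648 FPKM in PDGFB tumors, 365 in NRAS tumors and 13 in normal brain, a rise of 5.52 and 4.60 against normal brain. Myc rose by 3.97 and 3.52, and Spry4, a feedback inhibitor gene of receptor signaling, by 3.44 and 3.09, in PDGFB and NRAS tumors. PDGFB tumors had 7 of the 22 above NRAS tumors and 4 below, where 12.2% of all genes were called higher and 14.3% lower. Above were Etv4 (1.17), Egr1 (1.13), Egr3 (1.05), Ccnd1 (0.92), Fos (0.91), Ier2 (0.82) and Ctgf (0.82). Below were Fosl1 (-2.13), Ccl2 (-2.11), Junb (-1.15) and Ier3 (-1.08). Etv4, an ETS transcription factor gene, had 59.1 FPKM in PDGFB tumors, 27.3 in NRAS tumors and 4.21 in normal brain. Fosl1, an AP-1 subunit gene, averaged 0.258 FPKM in PDGFB tumors and 4.70 in NRAS tumors and was listed at 0 in all 3 normal brains.

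**Figure D5:**
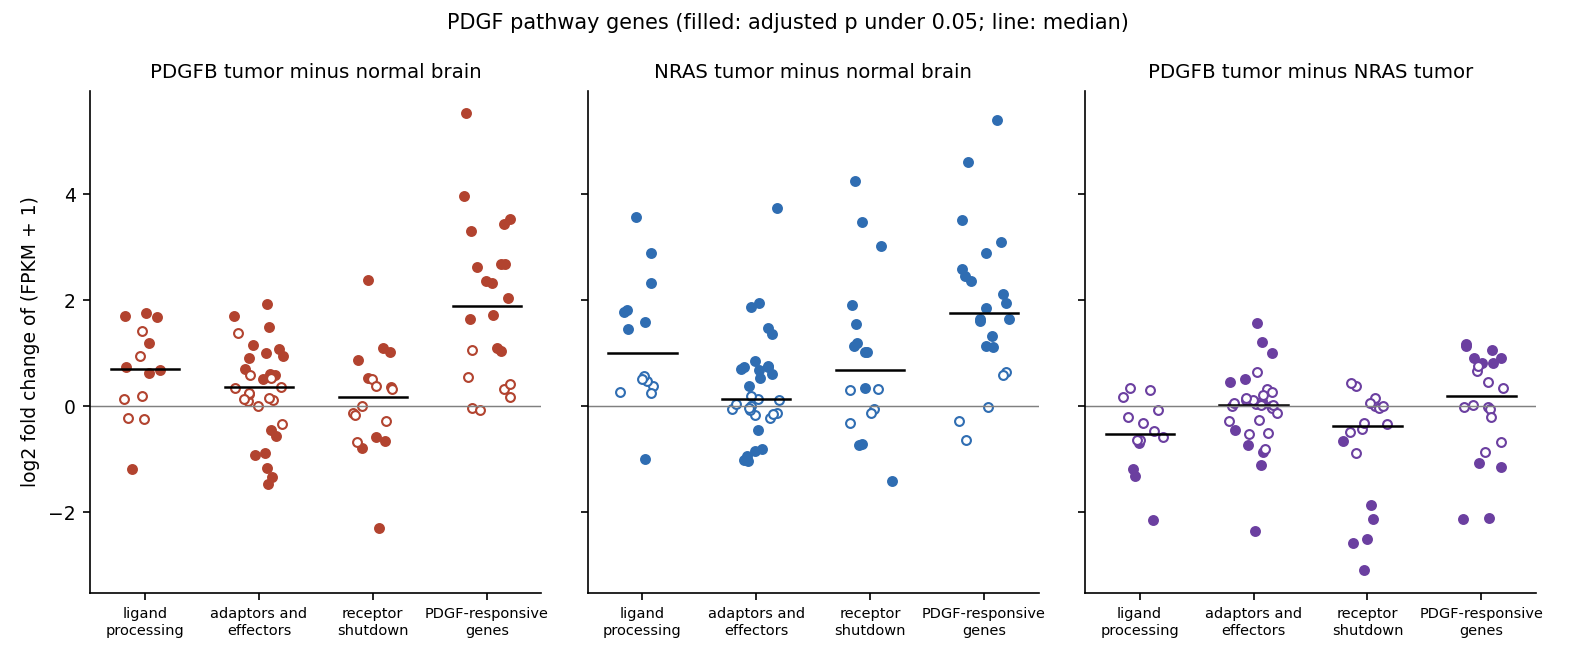
Log2 fold changes of (FPKM + 1) of genes in 4 PDGF pathway lists, in panels for the 3 comparisons, filled where the adjusted p was under 0.05 and with a line at each list's median. Responsive genes had medians of 1.88 and 1.75 in PDGFB and NRAS tumors against normal brain, and no gene of the ligand processing or shutdown lists was called higher in PDGFB than in NRAS tumors in this fit of all libraries.

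Genes whose pattern was most like each member were found by Pearson's r of log2(FPKM + 1) over all 11 libraries, among about 10353 genes with a mean of at least 5 FPKM. The libraries share groups, so r mostly reflects differences between them. For Pdgfra the 3 closest were Nt5e (0.993), Sephs1 (0.992) and Srsf6 (0.992). Nt5e, the CD73 enzyme gene, had 46.4 ± 7.12 FPKM in PDGFB tumors, 14.5 ± 6.47 in NRAS tumors and 3.12 ± 0.368 in normal brain. For Pdgfb they were Eif2ak3 (0.969), Mmp10 (0.962) and Safb (0.962), and Eif2ak3, a stress kinase gene, had 23.7 ± 1.91 FPKM in PDGFB tumors, 9.69 ± 1.52 in NRAS tumors and 8.64 ± 0.972 in normal brain. For Pdgfa they were Perp (0.948), Aldh4a1 (0.944) and Gpc4 (0.942). Gpc4, a glypican gene, had 1.93 ± 0.408 FPKM in PDGFB tumors, 25.9 ± 6.84 in NRAS tumors and 7.61 ± 2.31 in normal brain. Pdgfrb was closest to the fibroblast gene Lum (0.883), then Clip2 (0.825) and Gramd1a (0.822). Pdgfc was closest to Plec (0.875), Tmem200a (0.872) and Map3k5 (0.855), and Pdgfd to Adss (0.916), Fam132a (0.907) and Rsrp1 (0.904).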

How the data were processed

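RNA sequencing of 11 mouse brain libraries was analysed from 1 table of FPKM values deposited by the authors, who scaled fragments by transcript length and library total. Per the submitters' processing notes, TopHat2 2.0.13 and Cufflinks 2.2.1 were used with the mm10 build; their settings, strand use and annotation were not given in the sources used here. Read counts are not in the table, so absolute depth is unknown. Relative depths were taken from the steps between low values, since low FPKM rests on few reads. Each FPKM depends on the library total, and the FPKM of a library summed to between 460324 and 941667, of which 1314 small RNA genes took 10.5% to 42.8%. Of 24347 rows, 27 with gene names turned into dates were left out. Value columns not used numbered 0.

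All libraries entered 1 fit of group means of log2(FPKM + 1) by limma 3.58.1 under R 4.3.3, using lmFit and contrasts.fit and then eBayes with its trend option, for genes reaching 1 FPKM in 3 or more libraries. P-values are two-sided and were adjusted by Benjamini-Hochberg over the 14491 genes; an adjusted p under 0.05 is a call. The added 1 makes fold changes of low genes smaller than their true size. The fit was tested on simulated data. Receptor shares and ligand sums were compared with exact permutation tests, taking the p as double the smaller tail. Positions come from GENCODE annotation of GRCm38, and promoter windows from RefSeq.

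The members and gene lists were chosen with earlier results of these data known. Named genes are the 6 members, per list up to 4 called genes with the largest fold change in a comparison plus those that explain a count of 5 or fewer, the genes next to Pdgfra, and per member the 3 genes of highest Pearson's r; genes named beyond that were chosen after their values were seen. A gene of the effector list is not reported here by name. The labels do not say that replicates are separate animals, so p-values measure only the spread between these samples. Same-numbered samples did not deviate together (correlations of -0.499 to 0.158), so numbers were not used as pairs. That check did not cover the matches given in titles, PDGFB tumor 1 with normal brain 3 and NRAS tumor 2 with normal brain 1. The fit did not use those matches either. Alternatives were another pseudocount, filter, scaling, sample set or variance model, a replicate block, the title number series, and each library left out.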

Additional observations from a re-analysis of the deposited data

Results flagged for a closer look

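In 4-library groups, the highest or lowest library of each member was checked against the gap that Dixon's 95% critical value allows for 4 samples, which chance exceeds in about 1 in 20 groups. Of 16 such groups of values (8 quantities in 2 tumor groups) 2 exceeded it, both in NRAS tumors. Pdgfra stood at 143.5 FPKM in NRAS tumor 1, where the gap to the next NRAS tumor was 0.918 of the whole range; this library also had the highest progenitor marker sum of its group. Pdgfd stood at 5.13 FPKM in NRAS tumor 4, with a gap of 0.857 of the range, beside the highest fibroblast marker sum of its group. The part of either marker sum was not tested.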

How the results depend on the processing

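Pdgfb in both comparisons of PDGFB tumors, Pdgfra in all 3 comparisons and Pdgfa in PDGFB against NRAS tumors passed under every alternative run. With the number series added to the fit, 4768 of 14491 genes were called in PDGFB tumors against normal brain in place of 8470, 2463 higher and 2305 lower. Pdgfa no longer passed there by limma (-0.86, adjusted p = 0.0699), and Pdgfrb changed sign (-0.062). In that fit 4 of 14 ligand processing, 7 of 32 effector and 2 of 18 shutdown genes were higher (7 of 18 lower). Pdgfd in that comparison lost its call with the number series (-1.63), with no filter (-1.01, adjusted p = 0.0516) and with quantile normalization (-0.90), and ranged from -1.11 to -0.86 with 1 library left out. Pdgfrb ranged from 0.18 to 0.57 there, and from 0.57 to 0.96 in PDGFB against NRAS tumors, where it passed with quantile normalization (0.88).

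Pdgfa in NRAS tumors against normal brain lost its call in 16 of 21 settings. These were a pseudocount of 0.1 (0.50), no filter (0.49), median-of-ratios scaling (0.47), leaving out small RNA rows (0.34), the number series in the fit or the comparison within numbers 1834 to 1838 (0.41 each), eBayes without trend (0.49), the replicate block (0.46) and leaving out 8 of 11 libraries (0.40 to 0.63 over all 11). Pdgfc, which was not called, changed sign in that comparison with quantile normalization (-0.21), without small RNA rows (-0.096), with the replicate block (-0.0062), with the number series and within the number series (-0.12 each), and ranged from -0.081 to 0.084 with 1 library left out. Pdgfd passed there within numbers 1834 to 1838 (-0.75) and ranged from -0.84 to -0.24 with 1 library left out, and Pdgfrb passed with quantile normalization (-0.59). The cause of these changes was not tested.

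Leaving out small RNA rows moved the median fold change of all genes by -0.139 in PDGFB tumors and -0.136 in NRAS tumors against normal brain. The replicate block, with numbers that did not pair the samples, gave 7835, 8206 and 3249 called genes in place of 8470, 9023 and 3852, and changed no call of a member besides Pdgfa above. Low FPKM values such as those of Pdgfd rest on few reads.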

Other observations

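The PDGF receptors belong to a wider family of receptor tyrosine kinases and ligands, of which 15 other genes were measured. In PDGFB tumors against normal brain 3 were higher and 5 lower, and in NRAS tumors 5 were higher and 3 lower. Among all genes 29.3% were called higher and 29.2% lower in PDGFB tumors, and 32.0% and 30.3% in NRAS tumors, near these counts. In PDGFB against NRAS tumors 1 was higher and 8 lower, where 12.2% and 14.3% of all genes were. Kitl, the ligand gene of the Kit receptor, had 4.66 FPKM in PDGFB tumors, 50.0 in NRAS tumors and 19.3 in normal brain, and was lower in PDGFB than in NRAS tumors by -2.91 on the log2 scale (adjusted p = 0.00137). Il34, a ligand gene of the Csf1r receptor, had 8.62, 42.4 and 29.0 FPKM in PDGFB tumors, NRAS tumors and normal brain (PDGFB minus NRAS tumors -2.18, adjusted p = 0.0006). Vegfa, the main angiogenic ligand gene, rose in PDGFB tumors (1.06, adjusted p = 0.00208) and NRAS tumors (0.70, adjusted p = 0.0178) against normal brain.

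Kit and Kdr are the next 2 protein-coding genes after Pdgfra on chromosome 5. Kit had 8.40 FPKM in PDGFB tumors, 6.69 in NRAS tumors and 11.4 in normal brain, and fell in NRAS tumors by 0.64 (adjusted p = 0.0316), while PDGFB tumors differed by -0.36 (adjusted p = 0.205). Kdr had 6.08, 3.68 and 3.66 FPKM in PDGFB tumors, NRAS tumors and normal brain and rose in PDGFB tumors by 0.58 (adjusted p = 0.0226). The Pdgfra mean in PDGFB tumors was 16.7 times that of normal brain. Whether the levels of these neighbours are linked to that of Pdgfra was not tested. Csf1r, the next gene after Pdgfrb, is a microglia and macrophage gene and had 19.5 FPKM in PDGFB tumors, 91.5 in NRAS tumors and 31.7 in normal brain.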
